A study of Homo sapiens with 12 samples.

Results

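The genes described here are the matrix metalloproteinases (MMPs), the ADAM and ADAMTS proteases and their tissue inhibitors (TIMPs) in SNU449 cells, a human hepatocellular carcinoma line. They were chosen by name: protein-coding genes called MMP, ADAM or ADAMTS followed by a number, and the TIMPs. The rule found 34 genes among the 15601 genes of the table over all 12 libraries, which are 10 MMPs, 11 ADAMs, 11 ADAMTS genes and 2 TIMPs. Release 44 of the GENCODE annotation holds 65 genes with such names, and the other 31 were not analysed here. The study sequenced the 3′ ends of mRNA (QuantSeq) to ask how resistance to Regorafenib (Rego), an inhibitor of several receptor and intracellular kinases, depends on the receptor tyrosine kinase Axl. SNU449 and SNU449-Axl- cells, the latter without Axl after CRISPR/Cas9 editing, were each sequenced as control and as Rego-resistant cells, with 3 libraries for each of these 4 groups. The resistant cells of either background were raised under Rego that was increased stepwise to 2 times the IC50, and the control cells were naive to the drug. All 3 libraries of a group came from 1 population of cells, as technical replicates. Each SD and p-value therefore covers the spread between libraries, and a difference between conditions cannot be told apart from a difference between the populations.

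MMPs and ADAMTS proteases cut proteins of the extracellular matrix, while most ADAMs with an intact zinc-binding site release the extracellular parts of membrane proteins, among them growth factors of the ErbB family and Axl itself. TIMPs occupy the active site of these enzymes and block them. In liver tumours, matrix breakdown and the release of growth factors accompany invasion, and much of the activity is set after transcription, by removal of the propeptide and by TIMPs, which mRNA levels do not show.

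Values per library are given as deposited, on a scale on which genes with hardly any reads sit near a floor. The 940 genes with a mean normalized count under 2 had a median library value of 24, with 5% of these values under 20 and 5% over 32. Differences are log2 differences of these values plus 1 with the standard error (SE) of the fit, and they understate the change of genes near the floor. Genes were called at an adjusted p under 0.05 in limma with the method of Benjamini and Hochberg over all 15601 genes. Axl was checked first. AXL had values of 727, 941 and 715 in SNU449 controls and 1237, 815 and 1271 in Rego-resistant SNU449. It had 35, 53 and 33 in SNU449-Axl- controls and 50, 38 and 52 in Rego-resistant SNU449-Axl- cells, so that the groups labelled as lacking Axl were low. VIM, which encodes the mesenchymal filament vimentin, lay between 13759 and 27044 in all libraries. Of 6 hepatocyte markers only AFP and APOA1 were analysed, with library values between 19 and 39, and the leukocyte marker PTPRC lay between 19 and 31. APOA1 thus lay near the floor, and so did AFP in both SNU449 groups. AFP had 38, 33 and 39 in SNU449-Axl- controls and 36, 37 and 29 in Rego-resistant SNU449-Axl- cells. It was called as higher with Axl loss in control cells (0.67, limma, adjusted p = 0.0297), at a mean normalized count of 4.26. Among the 34 genes, the third SNU449 control library lay below the mean of the other 2 controls in 23, with a median absolute deviation of 0.355 on the log2 scale, the highest of the 12 libraries.

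How many reads stood behind a gene differed widely. The mean normalized count was under 5 for 10 of the 34 genes, between 5 and 10 for 4, between 10 and 50 for 6, between 50 and 200 for 5, and over 200 for 9. The 9 best covered were MMP7, TIMP1, TIMP2, ADAM9, ADAM10, ADAM12, ADAM15, ADAM17 and ADAM19. The lowest included MMP11, MMP17, MMP19, ADAM8, ADAM21 and ADAM32.

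**Figure D1:**
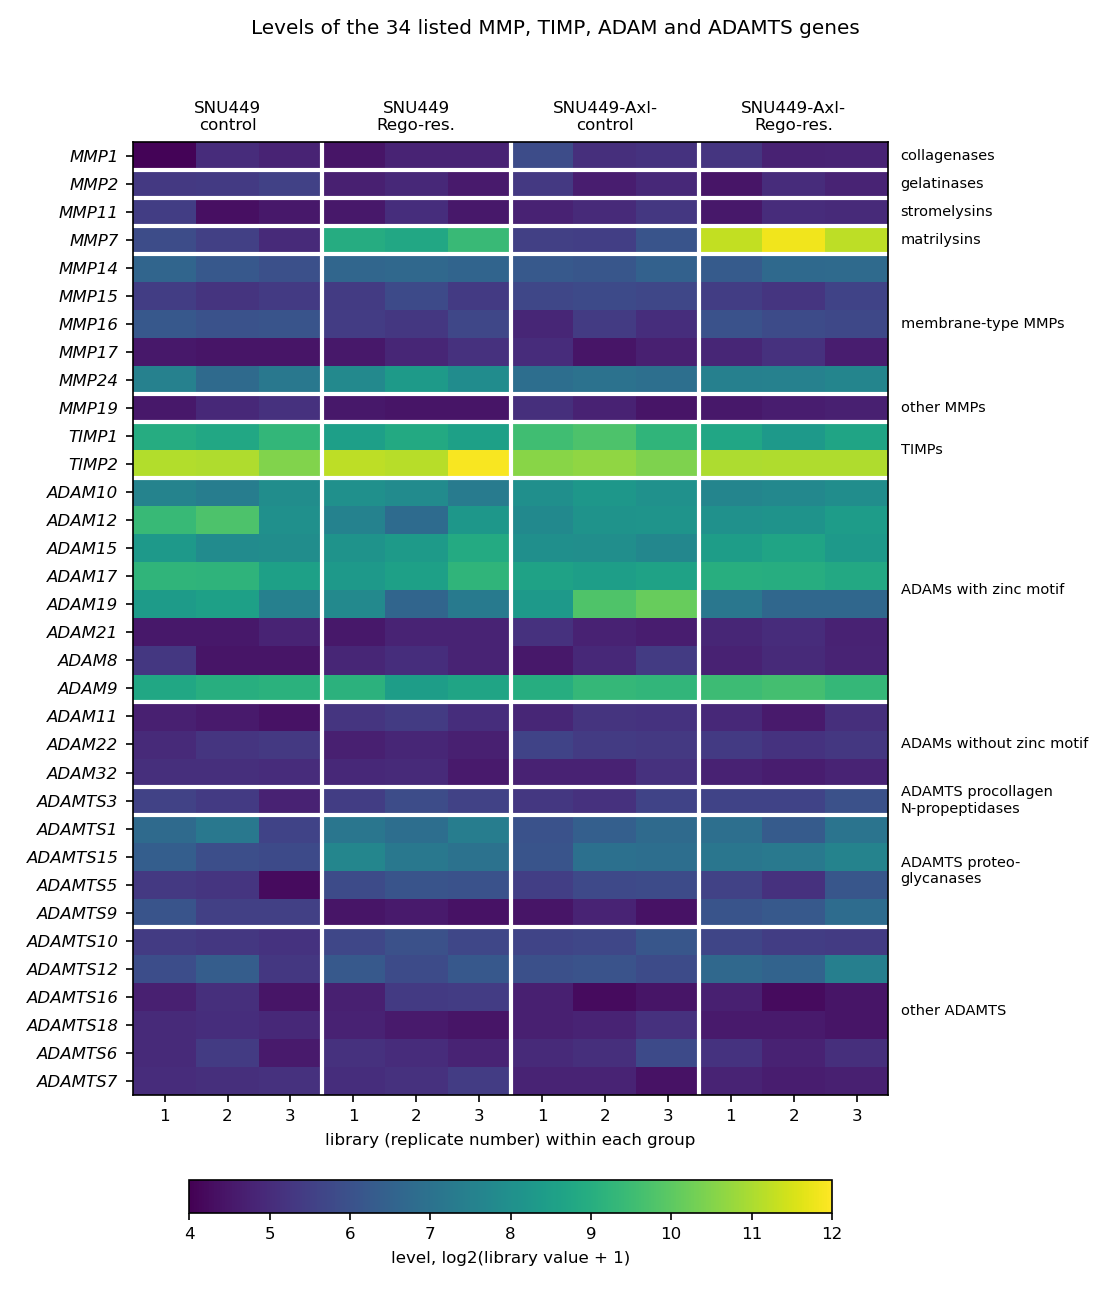
Levels of the 34 genes in the 12 libraries as log2(library value + 1), with genes in rows grouped by family role and libraries in columns grouped by cells. The MMP7 row is dark in all 6 control libraries and bright in all 6 resistant ones, while TIMP2 is high throughout and most ADAMTS and MMP genes stay near the floor.

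Most of the 34 genes were not called in any comparison, and MMP7 stood out by size. In Rego-resistant SNU449, 7 of the 34 genes (20.6%) were called against 7.81% of all genes. Of these, 5 rose (4.31% of all genes), namely MMP7, ADAMTS15, ADAMTS5, MMP24 and ADAM11, and 2 fell (3.50% of all genes), ADAM12 and ADAMTS9. In Rego-resistant SNU449-Axl- cells, 5 of 34 (14.7%) were called against 4.35% of all genes. Of these, 3 rose (2.54% of all genes), namely MMP7, ADAMTS9 and MMP16, and 2 fell (1.81% of all genes), ADAM19 and TIMP1. Loss of Axl went with lower ADAMTS9 and MMP16 in control cells, where 2 of 34 (5.88%) were called against 7.45% of all genes (4.03% higher and 3.43% lower). Among resistant cells it went with higher MMP7 and ADAMTS9, again 2 of 34 (5.88%), against 4.37% of all genes (2.44% higher and 1.93% lower). The Rego effect differed between the backgrounds for MMP7, ADAMTS9 and MMP16, all with the lower value in SNU449. These are 3 of 34 (8.82%), against 5.87% of all genes (2.95% higher and 2.92% lower). Whether the 34 genes differ from all genes in these shares was not tested.

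The median log2 difference of the 34 genes was close to 0 in each comparison. It was 0.11 for Rego in SNU449 (0.00 over all genes), 0.01 for Rego in SNU449-Axl- cells (0.01), 0.16 for Axl loss in control cells (0.00) and 0.03 for Axl loss in resistant cells (0.01). The libraries of both groups did not overlap for 13 of 34 genes in the first of these comparisons, against 27.9% of all genes. The same held for 14 against 29.1% in the second, for 9 against 27.9% in the third and for 10 against 28.0% in the fourth. The comparisons share groups, so that a gene standing apart in 1 group appears in more than 1 of them.

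Some of these counts depend on the fit. When the block for the replicate number was dropped, 6 genes were called for Axl loss in control cells, 5 for Axl loss in resistant cells and 6 for the difference between backgrounds. Centring the libraries on spike-in RNAs in place of all genes moved the median of all genes by 0.24 for Rego in SNU449-Axl- cells, by 0.29 for Axl loss in control cells, by 0.51 for Axl loss in resistant cells and by -0.22 for the difference between backgrounds. Calls then became mostly rises. Over the 34 genes they were 7 up and 1 down for Rego in SNU449-Axl- cells, 8 up and 1 down for Axl loss in control cells, and 11 up with none down for Axl loss in resistant cells. For the difference between backgrounds, 4 genes were called, all lower. Of all genes, 870 rose and 85 fell in the first of these, 1647 and 167 in the second, and 5627 and 48 in the third, against 396 and 282, 628 and 535, and 381 and 301 without the spike-ins. For the difference between backgrounds the split was 166 higher and 532 lower, against 461 and 455. All differences below are relative to the median of all genes, and a gene is said to be called, or to pass, in the fit with the block and this centring unless another is named.

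**Figure D2:**
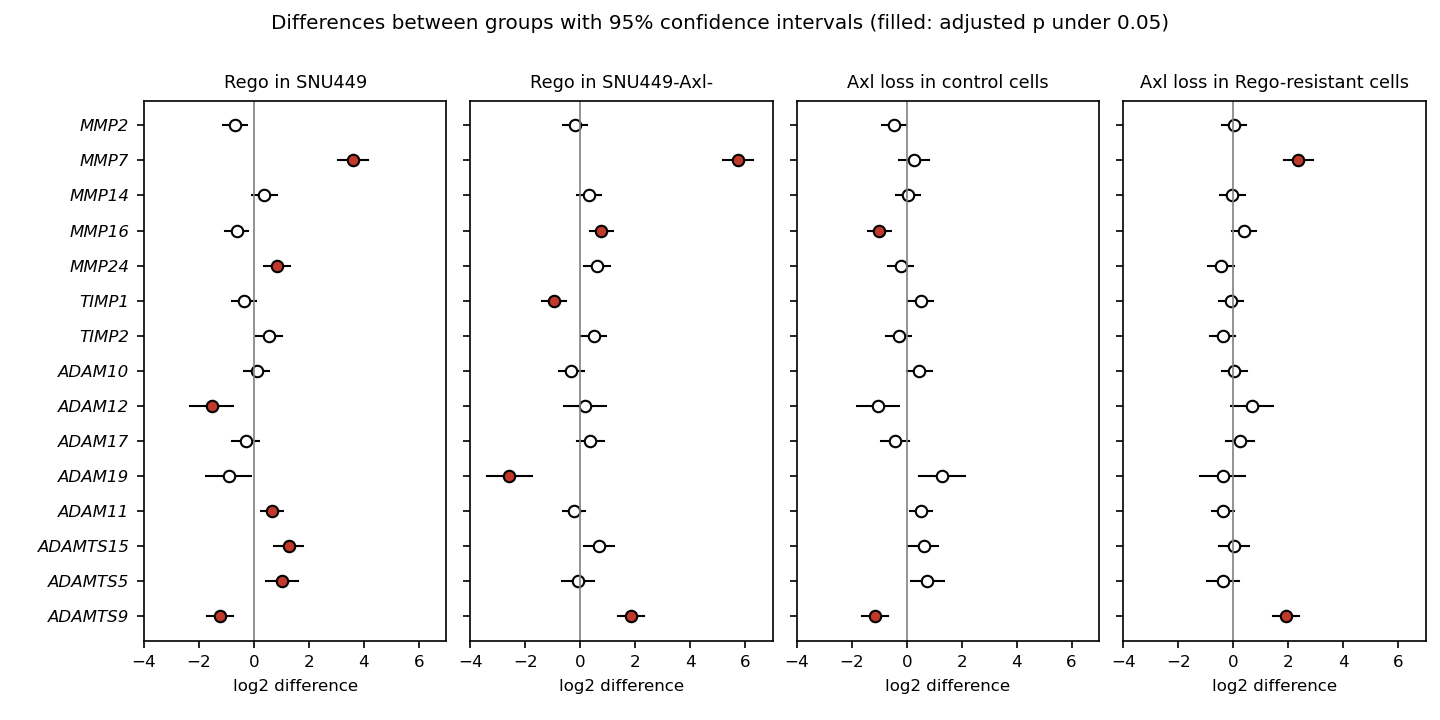
Log2 differences with 95% confidence intervals for 15 named genes in 4 comparisons, filled where the adjusted p was under 0.05. MMP7 lies at 3.62 and 5.73 in both Rego comparisons, and ADAMTS9 changes side between the backgrounds.

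The sequence upstream of the start is shown for MMP7, ADAM19, ADAM12 and TIMP1, the 4 called genes with a mean normalized count over 200, because these are the differences carried by most reads. The promoter table of RefSeq (GRCh38.p14) held 20 of the 34 genes. Capitals mark matches, on either strand, to TGANTCA, a site of the AP-1 factors, to AGGAAG, a site of the PEA3 group of ETS factors, and to TATAAA, the TATA box. CTTTGAT, a site of TCF/LEF factors, was also searched. Sequences run 5′ to 3′ on the strand of the gene and end before its first annotated base. They lie at chr11:102530751-102530997 (minus strand, MMP7), chr5:157575776-157576025 (minus strand, ADAM19), chr10:126388478-126388727 (minus strand, ADAM12) and chrX:47582186-47582407 (plus strand, TIMP1).
MMP7: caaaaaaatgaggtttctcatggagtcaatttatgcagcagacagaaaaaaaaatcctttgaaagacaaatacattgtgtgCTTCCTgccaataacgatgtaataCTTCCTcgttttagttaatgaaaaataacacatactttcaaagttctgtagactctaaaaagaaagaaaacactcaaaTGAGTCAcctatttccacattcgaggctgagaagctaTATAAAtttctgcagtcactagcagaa
ADAM19: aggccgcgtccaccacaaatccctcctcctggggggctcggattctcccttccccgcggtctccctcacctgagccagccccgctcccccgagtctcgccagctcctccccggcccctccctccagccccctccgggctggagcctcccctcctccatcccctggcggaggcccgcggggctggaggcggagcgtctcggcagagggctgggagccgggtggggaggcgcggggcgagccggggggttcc
ADAM12: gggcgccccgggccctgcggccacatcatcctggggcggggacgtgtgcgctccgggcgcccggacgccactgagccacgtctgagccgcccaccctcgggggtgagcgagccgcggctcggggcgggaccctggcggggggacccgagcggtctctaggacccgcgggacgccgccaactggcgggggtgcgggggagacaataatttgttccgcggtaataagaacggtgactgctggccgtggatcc
TIMP1: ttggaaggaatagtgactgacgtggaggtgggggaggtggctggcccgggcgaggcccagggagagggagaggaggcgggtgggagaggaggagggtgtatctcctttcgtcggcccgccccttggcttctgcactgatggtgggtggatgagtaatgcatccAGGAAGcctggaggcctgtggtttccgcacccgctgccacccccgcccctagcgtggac

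The MMP7 stretch was AT-rich, with 33.6% G and C, and held 1 AP-1 match that began 67 bases before the RefSeq start, 2 PEA3 matches at 169 and 145 bases, and a TATA box at 30 bases. The ADAM19 and ADAM12 stretches had 76.4% and 73.6% G and C and none of the 4 motifs. TIMP1, with 65.8% G and C, had 1 PEA3 match at 87 bases. In the first 250 bases before the start, 6.57% of all 35116 promoters held the AP-1 letters, 28.7% the PEA3 letters, 10.7% the TATA letters and 2.26% the TCF/LEF letters. Of the 20 members with a promoter, 2 held the AP-1 letters (MMP7 and ADAMTS12), 6 the PEA3 letters, 2 the TATA letters (MMP7 and ADAMTS10) and 0 the TCF/LEF letters. Only the letters given were searched, so a TCF/LEF site with other letters was not counted. The MMP7 stretch holds ctttgaa, which differs from CTTTGAT in its last letter. These matches describe letters and not bound sites.

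MMP7 encodes matrilysin, a small secreted MMP without the hemopexin domain, known in epithelia and carcinomas, which cuts matrix proteins, E-cadherin and the ErbB ligand HB-EGF. The gene lies on chromosome 11 from 102520508 to 102530750 on the minus strand (GRCh38). Its values were 57, 45 and 30 in SNU449 controls and 500, 447 and 680 in Rego-resistant SNU449. They were 45, 44 and 67 in SNU449-Axl- controls and 2474, 3652 and 2346 in Rego-resistant SNU449-Axl- cells. All resistant libraries were above all control libraries, the control groups overlapped, and the resistant Axl-deficient libraries were above the resistant Axl-proficient ones. MMP7 rose by 3.62 on the log2 scale in Rego-resistant SNU449 (SE 0.26, limma, adjusted p = 7.09e-08). In SNU449-Axl- cells it rose by 5.73 (adjusted p = 2.36e-10), the lowest adjusted p of the 34 genes in any comparison. The rise differed between the backgrounds by -2.12 (SE 0.368, limma, adjusted p = 0.002), being smaller in SNU449 on this scale. Among resistant cells, MMP7 was higher without Axl by 2.37 (adjusted p = 2.53e-05). Among control cells the difference was 0.26, with a 95% interval from -0.29 to 0.80, and did not pass the test (adjusted p = 0.638). Each of these calls remained when any 1 of the 12 libraries was left out, with the highest adjusted p at 0.0132 for the difference between backgrounds.

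The scale compresses low counts, and the read counts behind MMP7 differed by more. Solving the authors' mean normalized counts of the tables of 2 groups for the 4 groups gave 437 reads for Rego-resistant SNU449 and 3140 for Rego-resistant SNU449-Axl- cells. With any 1 of the 6 tables left out these lay between 391 and 477 and between 3070 and 3180. The controls gave 6.62 and 93.0, but the first moved between 0.0 and 58.3 and the second between 32.4 and 145. A fold between resistant and control cells in reads was therefore not given. Whether the rise was smaller in SNU449 in reads as well was not determined. MMP7 lies in the MMP cluster of chromosome 11, of which MMP1 was the only other member analysed.

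**Figure D3:**
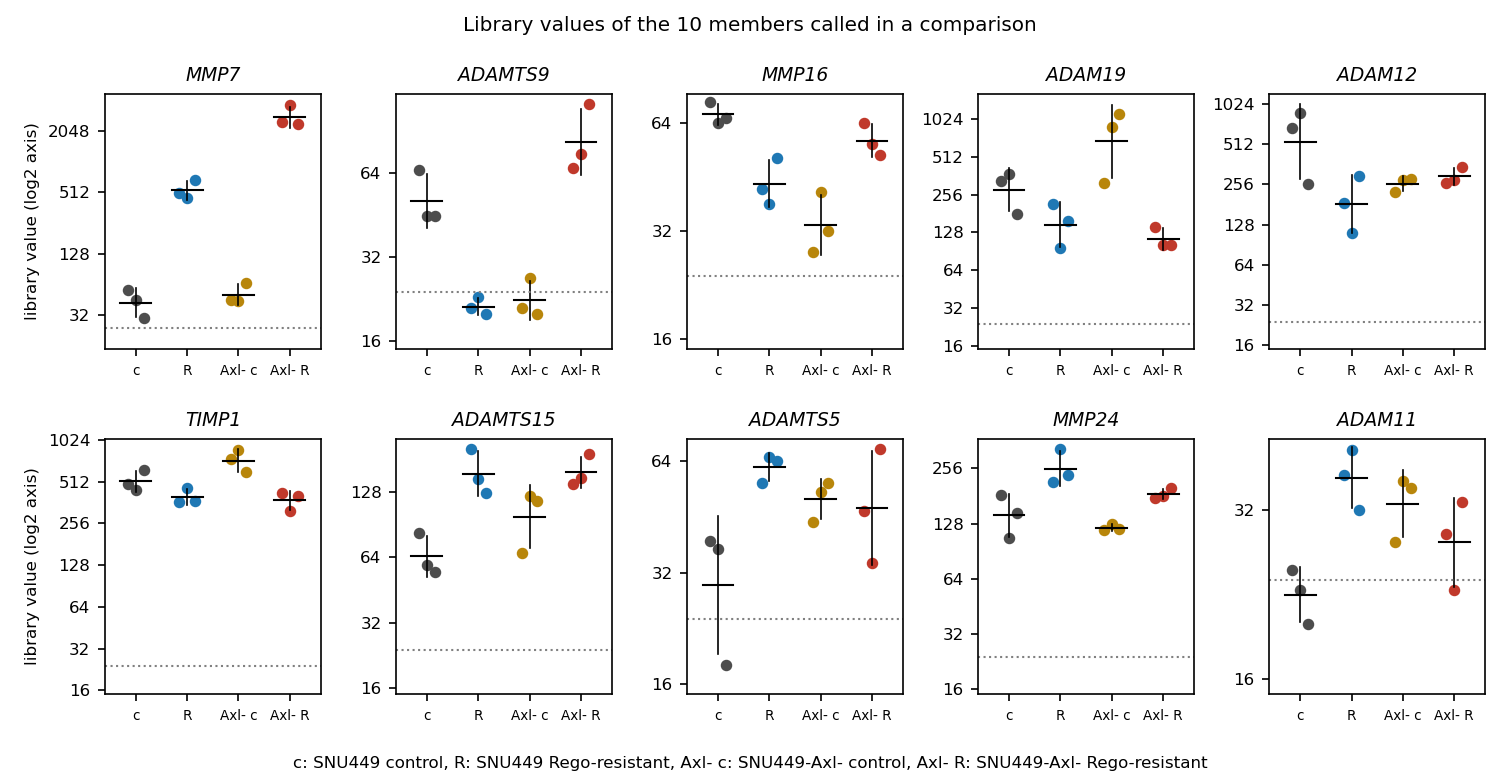
Library values of the 10 genes called in at least 1 comparison, on log2 axes, with the group mean (horizontal bar) and SD (vertical bar) of the 3 libraries, both computed on the log2 scale. The dotted line is the median value of genes with a mean normalized count under 2, near which ADAMTS9 falls in Rego-resistant SNU449 and in SNU449-Axl- controls.

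The other secreted MMPs were close to the floor. MMP1, the interstitial collagenase, had library values from 16 to 57, and MMP2, gelatinase A, from 21 to 46. MMP11, a stromelysin that furin activates inside the cell, ranged from 19 to 43, and MMP19 from 21 to 34. MMP2 had values of 39, 40 and 46 in SNU449 controls and of 25, 29 and 23 in Rego-resistant SNU449, which do not overlap. The difference was -0.68 (SE 0.207) and did not pass the test (limma, adjusted p = 0.0512), although it did without the first or the second SNU449-Axl- control library (adjusted p = 0.0286 and 0.044) and without the block (0.0199). The mean normalized count of MMP2 was 5.44.

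The membrane-type MMPs stay on the cell surface through a transmembrane or lipid anchor. MMP14, the activator of the MMP2 proenzyme, had values between 61 and 108 in all libraries, with differences from -0.03 to 0.38 that did not pass the test. MMP15 lay between 36 and 55 and MMP17, the lipid-anchored member, between 21 and 34. MMP16, a transmembrane member, had values of 73, 64 and 66 in SNU449 controls and 42, 38 and 51 in Rego-resistant SNU449. It had 28, 41 and 32 in SNU449-Axl- controls and 64, 56 and 52 in Rego-resistant SNU449-Axl- cells. The SNU449 controls and the resistant Axl-deficient libraries were high, and neither overlapped with the lower group of its own background.

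MMP16 fell by 1.0 on the log2 scale with loss of Axl in control cells (SE 0.2, limma, adjusted p = 0.00438) and rose with Rego in SNU449-Axl- cells by 0.76 (adjusted p = 0.0363). In SNU449 the Rego difference was -0.63 and did not pass the test (adjusted p = 0.0629, and 0.0186 without the block). The Rego effect differed between the backgrounds by -1.39 (SE 0.283, adjusted p = 0.00621). The rise in SNU449-Axl- cells was no longer called without the first, the second or the third Rego-resistant SNU449-Axl- library (adjusted p = 0.178, 0.14 and 0.0709) or without the first or the third SNU449-Axl- control library (0.168 and 0.11). Centred on spike-in RNAs, the Axl difference in control cells was -0.71 with an adjusted p of 0.0535, and that in resistant cells, not called otherwise, was 0.89 (adjusted p = 0.00865).

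MMP24, a membrane-type MMP known from nerve cells, had values of 183, 107 and 146 in SNU449 controls and 215, 327 and 235 in Rego-resistant SNU449. It had 118, 128 and 120 in SNU449-Axl- controls and 177, 182 and 200 in Rego-resistant SNU449-Axl- cells. The resistant libraries were above the controls in both backgrounds. MMP24 rose in SNU449 by 0.84 (SE 0.219, limma, adjusted p = 0.0229), while the difference of 0.61 in SNU449-Axl- cells did not pass the test (adjusted p = 0.131), and the effects did not differ detectably (0.23, 95% interval -0.42 to 0.88). The call in SNU449 was lost without the second Rego-resistant SNU449 library (adjusted p = 0.174), the second SNU449 control (0.187) or the third (0.0518), and in the table of these 2 groups alone (0.71, adjusted p = 0.117). Centred on spike-in RNAs, MMP24 was called as a rise with Rego in SNU449 (0.86, limma, adjusted p = 0.0326) and in SNU449-Axl- cells (0.84, adjusted p = 0.0369). MMP24 overlaps MMP24OS on the opposite strand, and the strand setting of the counting is not given in the sources used here, so that reads of this pair may not be told apart. The same limit holds for ADAM19 with NIPAL4 and CYFIP2, for ADAM17 with IAH1, for ADAM9 with TM2D2 and for ADAMTS7 with MORF4L1, which overlap on opposite strands.

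The TIMPs had high levels in all groups. TIMP1, a secreted inhibitor of most MMPs and of ADAM10, had values of 490, 444 and 625 in SNU449 controls and 365, 465 and 369 in Rego-resistant SNU449. It had 744, 868 and 601 in SNU449-Axl- controls and 423, 314 and 405 in Rego-resistant SNU449-Axl- cells. The groups overlapped in SNU449 and not in SNU449-Axl- cells. TIMP1 fell by 0.95 on the log2 scale in Rego-resistant SNU449-Axl- cells (SE 0.21, limma, adjusted p = 0.0139). The difference of -0.37 in SNU449 did not pass the test (adjusted p = 0.329), and that between the backgrounds, 0.58, did not either (adjusted p = 0.304). The call was lost without the second Rego-resistant SNU449-Axl- library (adjusted p = 0.14), without the second SNU449-Axl- control (0.13), and when centred on spike-in RNAs (-0.72, adjusted p = 0.089). With that centring, Axl loss in control cells was called as a rise (0.79, adjusted p = 0.0385).

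TIMP2, which also binds MMP14 in the complex that activates MMP2, had values of 2150, 2112 and 1435 in SNU449 controls and 2380, 2240 and 3887 in Rego-resistant SNU449. It had 1527, 1621 and 1397 in SNU449-Axl- controls and 2089, 2128 and 2094 in Rego-resistant SNU449-Axl- cells. The resistant libraries were above the controls in both backgrounds, by 0.56 (95% interval 0.09 to 1.02) and 0.48 (0.01 to 0.94). Neither passed the test over all genes (limma, adjusted p = 0.148 and 0.257).

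Among the ADAMs with a zinc-binding site, the main sheddases were not called in any comparison of the fit centred on all genes. ADAM10, which cuts Notch receptors and the ErbB ligands EGF and betacellulin, had library values between 159 and 303. Its log2 differences were 0.10 for Rego in SNU449, -0.33 for Rego in SNU449-Axl- cells, 0.46 for Axl loss in control cells and 0.03 for Axl loss in resistant cells. ADAM17, which cuts TNF, amphiregulin, epiregulin and TGF-alpha, lay between 319 and 606, with corresponding differences of -0.30, 0.36, -0.43 and 0.24. The lowest adjusted p of these 8 differences was 0.219, for ADAM10 with Axl loss in control cells. Centred on spike-in RNAs, ADAM10 was called with Axl loss in control cells (0.76, limma, adjusted p = 0.0415) and ADAM17 with Axl loss in resistant cells (0.74, adjusted p = 0.0334). The difference of the Rego effect between backgrounds was -0.67 for ADAM17 (adjusted p = 0.293) and was called without the third Rego-resistant SNU449 library (-1.02, adjusted p = 0.0483). ADAM9 and ADAM15, both able to cut membrane proteins, lay between 347 and 772 and between 209 and 470. ADAM9 was higher with Axl loss in resistant cells by 0.72 without passing the test (adjusted p = 0.0567). It passed without the first SNU449-Axl- control, the third SNU449 control or the first Rego-resistant SNU449 library (adjusted p = 0.047, 0.0444 and 0.0205). It also passed without the block (0.0188), in the table of these 2 groups alone (0.63, adjusted p = 0.0203) and centred on spike-in RNAs (1.22, adjusted p = 0.000632). ADAM15 had values of 252, 247 and 209 in SNU449-Axl- controls and 353, 408 and 321 in Rego-resistant SNU449-Axl- cells, which do not overlap. The difference of 0.61 did not pass the test (limma, adjusted p = 0.126) and was called when centred on spike-in RNAs (0.84, adjusted p = 0.0417). ADAM15 reads may include those of the readthrough gene ADAM15-EFNA4. ADAM8 and ADAM21, known from leukocytes and testis, lay between 21 and 41.

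ADAM19, or meltrin beta, which cuts neuregulin, had values of 331, 376 and 179 in SNU449 controls and 216, 96 and 157 in Rego-resistant SNU449. It had 318, 889 and 1133 in SNU449-Axl- controls and 142, 101 and 102 in Rego-resistant SNU449-Axl- cells. All 3 SNU449-Axl- controls were above all 3 resistant libraries of that background, while the SNU449 groups overlapped. ADAM19 fell by 2.58 on the log2 scale in Rego-resistant SNU449-Axl- cells (SE 0.39, limma, adjusted p = 0.000687), the largest fall of the 34 genes. This call remained without any 1 library, with differences from -3.32 to -2.10, and NIPAL4 and CYFIP2 on the opposite strand were not called in this comparison. The Rego difference in SNU449 was -0.92 and did not pass the test (adjusted p = 0.174). The difference between backgrounds was 1.66 (adjusted p = 0.0872) and that with Axl loss in control cells 1.28 (adjusted p = 0.0535), and neither passed. Axl loss in control cells passed without the block (adjusted p = 0.0411) and centred on spike-in RNAs (1.57, adjusted p = 0.00166). Without the first SNU449-Axl- control, the difference between backgrounds was 2.40 (adjusted p = 0.00105), Axl loss in control cells 2.01 (adjusted p = 0.000325) and the Rego difference in SNU449 was called (adjusted p = 0.0292). Without the second Rego-resistant SNU449 library, the difference between backgrounds was 2.08 and that with Axl loss 1.28 (adjusted p = 0.0419 and 0.0418).

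ADAM12, or meltrin alpha, which cuts HB-EGF and IGF-binding proteins, had values of 675, 869 and 257 in SNU449 controls and 186, 110 and 297 in Rego-resistant SNU449. It had 223, 276 and 279 in SNU449-Axl- controls and 262, 277 and 344 in Rego-resistant SNU449-Axl- cells. The first and second SNU449 controls stood above all other libraries, and the third overlapped with the resistant ones. ADAM12 fell by 1.54 on the log2 scale in Rego-resistant SNU449 (SE 0.366, limma, adjusted p = 0.013), with no comparable difference in SNU449-Axl- cells (0.18, 95% interval -0.59 to 0.95). The fall was lost without the first or second SNU449 control (adjusted p = 0.0771 and 0.128) or without the second Rego-resistant SNU449 library (0.121), and in the table of these 2 groups alone (-1.40, adjusted p = 0.0844). Without the third SNU449 control it was -2.24 (adjusted p = 3.63e-05). The difference between backgrounds, -1.72, had an adjusted p of 0.0583, and of 0.000403 without that control. It was also called without the third Rego-resistant SNU449 library (-2.18, adjusted p = 0.0144), without the block (0.0422) and centred on spike-in RNAs (-1.93, adjusted p = 0.0141). Axl loss in control cells gave -1.04 (adjusted p = 0.0935), and -1.74 (adjusted p = 0.000593) without the third SNU449 control.

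The ADAMs without a zinc-binding site cannot act as proteases, and ADAM11 and ADAM22 bind secreted LGI proteins at nerve cell contacts. ADAM11 had values of 25, 23 and 20 in SNU449 controls and 37, 41 and 32 in Rego-resistant SNU449, which do not overlap but lie at or near the floor. It had 28, 36 and 35 in SNU449-Axl- controls and 29, 23 and 33 in Rego-resistant SNU449-Axl- cells, which overlap. The rise in SNU449 was 0.67 (SE 0.192, limma, adjusted p = 0.0387) at a mean normalized count of 4.72. It was lost without any of the 3 SNU449 controls, without the first or second Rego-resistant SNU449 library, or without the first Rego-resistant SNU449-Axl- library, with adjusted p from 0.0505 to 0.173. It was also lost in the table of these 2 groups alone (0.47, adjusted p = 0.0912) and when centred on spike-in RNAs (adjusted p = 0.092). The Rego difference in SNU449-Axl- cells was -0.22 (limma, adjusted p = 0.594). The difference between backgrounds, 0.89, had an adjusted p of 0.063. That difference was called without the block (0.0195) and without the first SNU449-Axl- control or the third Rego-resistant SNU449-Axl- library (0.0448 and 0.0483). ADAM22 lay between 25 and 48 and ADAM32 between 23 and 34, and neither was called.

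The ADAMTS proteoglycanases cut aggrecan and versican. ADAMTS9, on chromosome 3, had values of 66, 45 and 45 in SNU449 controls and 21, 23 and 20 in Rego-resistant SNU449. It had 21, 27 and 20 in SNU449-Axl- controls and 67, 75 and 113 in Rego-resistant SNU449-Axl- cells. The groups did not overlap in either background, and the lower ones lay at the floor. ADAMTS9 fell by 1.23 on the log2 scale in Rego-resistant SNU449 (SE 0.224, limma, adjusted p = 0.00186) and rose in Rego-resistant SNU449-Axl- cells by 1.84 (adjusted p = 0.000117). The effects differed by -3.06 (SE 0.317, adjusted p = 1.83e-05). With Axl loss it fell by 1.15 in control cells (adjusted p = 0.00364), and it was higher by 1.91 among resistant cells (adjusted p = 5.15e-05). Every one of these calls remained when any 1 library was left out and when centred on spike-in RNAs. At a mean normalized count of 21.4 the differences from groups at the floor are compressed.

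FN1, which encodes fibronectin and was analysed as a mesenchymal marker, was also high in SNU449 controls and Rego-resistant SNU449-Axl- cells and low in the other 2 groups. Its values were 2491, 1437 and 2923 in SNU449 controls, 336, 453 and 650 in Rego-resistant SNU449, 559, 377 and 463 in SNU449-Axl- controls, and 2543, 4850 and 1351 in Rego-resistant SNU449-Axl- cells. FN1 fell by 2.24 with Rego in SNU449 (limma, adjusted p = 0.000686) and rose with Rego in SNU449-Axl- cells by 2.47 (adjusted p = 0.000544). The other 4 mesenchymal markers were not called in any comparison, and their part in the ADAMTS9 and MMP16 values was not tested.

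ADAMTS15 had values of 83, 59 and 55 in SNU449 controls and 203, 147 and 127 in Rego-resistant SNU449. It had 67, 123 and 117 in SNU449-Axl- controls and 140, 148 and 191 in Rego-resistant SNU449-Axl- cells. The resistant libraries were above the controls in both backgrounds. ADAMTS15 rose in SNU449 by 1.26 on the log2 scale (SE 0.258, limma, adjusted p = 0.00463), a call that remained without any 1 library. The difference of 0.67 in SNU449-Axl- cells did not pass (adjusted p = 0.156), and the effects did not differ detectably (0.59, 95% interval -0.18 to 1.35). Centred on spike-in RNAs, ADAMTS15 was called as a rise with Rego in SNU449-Axl- cells (0.90, limma, adjusted p = 0.0307). With that centring it was also called with Axl loss in control cells (0.90, adjusted p = 0.0208). Without the first SNU449-Axl- control, Axl loss in control cells was called for ADAMTS15 (0.98, adjusted p = 0.0248, against 0.61 and 0.176 with all libraries).

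ADAMTS5, the main aggrecanase of cartilage, had values of 39, 37 and 18 in SNU449 controls and 56, 66 and 64 in Rego-resistant SNU449. It had 44, 53 and 56 in SNU449-Axl- controls and 47, 34 and 69 in Rego-resistant SNU449-Axl- cells. The SNU449 controls were below the other groups except for 1 library of the resistant Axl-deficient cells. ADAMTS5 rose in Rego-resistant SNU449 by 1.03 (SE 0.277, limma, adjusted p = 0.0271). The rise was 0.57 without the third SNU449 control (adjusted p = 0.193), and it was also lost without the first, the second or the third Rego-resistant SNU449 library (0.0541, 0.108 and 0.0983) and in the table of these 2 groups alone (0.74, adjusted p = 0.0513). The effect in SNU449-Axl- cells was -0.08, and the difference between backgrounds, 1.11, had an adjusted p of 0.108, and of 0.0364 without the third Rego-resistant SNU449-Axl- library. ADAMTS1, the neighbour of ADAMTS5 on chromosome 21, lay between 48 and 165 and was not called.

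Of the remaining ADAMTS genes, ADAMTS12, which cuts the cartilage protein COMP, had values of 61, 65 and 56 in SNU449-Axl- controls and 103, 93 and 176 in Rego-resistant SNU449-Axl- cells. These do not overlap. The difference of 0.96 (SE 0.27) missed the threshold (limma, adjusted p = 0.05) and passed without the second or the third SNU449 control (0.0315 and 0.0168). It also passed without the block (0.0255), in the table of these 2 groups alone (0.62, adjusted p = 0.0208) and centred on spike-in RNAs (1.20, adjusted p = 0.0132). Axl loss in resistant cells gave 0.82 (adjusted p = 0.0962), and an adjusted p of 0.0401 without the third SNU449 control, of 0.0218 in the table of these 2 groups alone and of 0.00227 centred on spike-in RNAs. ADAMTS10, a protein of fibrillin microfibrils, lay between 35 and 70, and ADAMTS3, a procollagen N-propeptidase, between 26 and 62. ADAMTS6, ADAMTS7, ADAMTS16 and ADAMTS18 lay between 18 and 55 and were not called. The difference of ADAMTS16 with Axl loss in resistant cells, -0.69 (adjusted p = 0.0941), was called without the first Rego-resistant SNU449 library (-0.99, adjusted p = 0.0274) and without the block (0.0456).

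**Figure D4:**
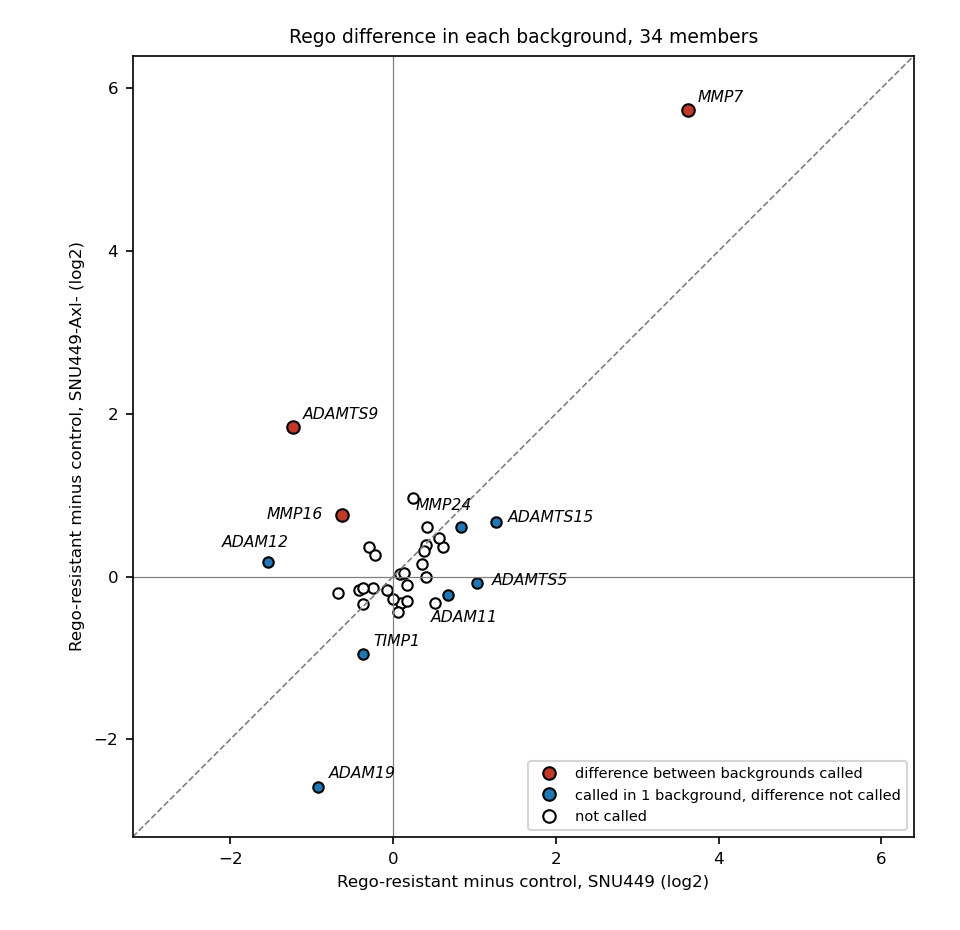
Log2 difference of Rego-resistant minus control cells in SNU449 (horizontal axis) and in SNU449-Axl- cells (vertical axis) for the 34 genes, with the dashed line at equal differences. MMP7 lies far up on both axes, ADAMTS9 and MMP16 lie left of and above 0, and most genes cluster around the origin.

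Genes that activate, anchor or inhibit these proteases were looked at as a list of 22, of which 18 were analysed. Their calls, and those of the further lists below, come only from the fit with the block, centred on all genes. Whether these calls remain without a library, without the block or with spike-in centring was not tested. In Rego-resistant SNU449, BSG rose and SPOCK1 fell, which are 1 of 18 in each direction, against 4.31% of all genes higher and 3.50% lower. BSG encodes basigin, a surface protein known to raise MMP production, and its values were 233, 282 and 353 in controls and 433, 572 and 617 in resistant cells (0.90, limma, adjusted p = 0.0418). SPOCK1, a secreted proteoglycan that inhibits MMP activation, had values of 85, 81 and 45 in SNU449 controls and between 19 and 25 in the other 9 libraries. It fell by 1.50 in Rego-resistant SNU449 (adjusted p = 0.000329) and fell by 1.61 with Axl loss in control cells (adjusted p = 0.000216). In Rego-resistant SNU449-Axl- cells, 2 of 18 fell, against 1.81% of all genes. FURIN, the convertase that removes many MMP and ADAM propeptides, had 79, 121 and 114 in controls and 63, 52 and 50 in resistant cells and fell by 0.90 (limma, adjusted p = 0.0164).

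The second was TSPAN14, a tetraspanin that guides ADAM10 through the secretory pathway. TSPAN14 had values of 979, 1018 and 815 in SNU449 controls and 1309, 1561 and 1529 in Rego-resistant SNU449. It had 1660, 1676 and 2340 in SNU449-Axl- controls and 1183, 945 and 863 in Rego-resistant SNU449-Axl- cells. The groups did not overlap in either background, with the resistant libraries higher in SNU449 and lower in SNU449-Axl- cells. The Rego difference was 0.65 in SNU449 (limma, adjusted p = 0.0557) and -0.92 in SNU449-Axl- cells (adjusted p = 0.0129), and these differed by 1.56 (adjusted p = 0.00268). With Axl loss in control cells 3 of 18 rose and 2 fell, against 4.03% and 3.43% of all genes. TSPAN14 rose by 1.0 (adjusted p = 0.00447), TSPAN15, another ADAM10 partner, by 0.83 (0.023), and RHBDF2, the iRhom that carries ADAM17 to the surface, by 0.73 (0.041). TSPAN5, also an ADAM10 partner, fell by 1.08 (adjusted p = 0.0269) together with SPOCK1.

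Of 26 membrane proteins known to be shed by ADAMs or MMPs, 23 were analysed. In Rego-resistant SNU449, 2 rose (ERBB4 and EPHB4) and 4 fell (NRG1, NOTCH2, SDC4 and TGFA), against 4.31% and 3.50% of all genes. In Rego-resistant SNU449-Axl- cells, 1 rose (CX3CL1) and 2 fell (AREG and EREG), against 2.54% and 1.81%. With Axl loss, 3 rose (AREG, EREG and EPHB4) and 2 fell (AXL and TGFA) in control cells, and 2 rose (CX3CL1 and NRG1) and 3 fell (AXL, EPHB4 and SDC1) in resistant cells, against 4.03% and 3.43% of all genes in the former and 2.44% and 1.93% in the latter. For the difference between backgrounds, 4 were higher (AREG, EPHB4, ERBB4 and EREG) and 2 lower (CX3CL1 and TGFA), against 2.95% and 2.92% of all genes. ERBB4, a receptor that ADAM17 can cut, had values of 23, 23 and 21 in SNU449 controls and 41, 53 and 52 in Rego-resistant SNU449 (1.08, limma, adjusted p = 0.000806). These controls lay at the floor, and the mean normalized count of ERBB4 was 8.02. It had 35, 28 and 28 in SNU449-Axl- controls and 32, 31 and 34 in Rego-resistant SNU449-Axl- cells. The Rego effect on ERBB4 differed between the backgrounds by 0.99 (adjusted p = 0.0265). NRG1, the neuregulin that ADAM19 can release, had 480, 573 and 826 in SNU449 controls and 298, 331 and 245 in Rego-resistant SNU449 (-1.07, adjusted p = 0.00728). The SNU449 groups of both genes did not overlap.

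The ErbB ligand genes AREG and EREG, whose products are cut by ADAM17, were highest in SNU449-Axl- controls. AREG had 241, 140 and 180 there, 89, 83 and 49 in Rego-resistant SNU449-Axl- cells, 19, 39 and 44 in SNU449 controls and 64, 56 and 66 in Rego-resistant SNU449. EREG had 453, 279 and 526, then 99, 113 and 54, then 62, 74 and 138, and 90, 108 and 64 in the same groups. With Axl loss in control cells AREG rose by 2.47 (limma, adjusted p = 4.43e-05) and EREG by 2.22 (adjusted p = 0.000338). CX3CL1, a chemokine released by ADAM10 and ADAM17, had values of 49, 50 and 56 in Rego-resistant SNU449-Axl- cells and between 20 and 27 in all other libraries.

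Of 16 transcription factors known to act on MMP promoters, all 16 were analysed. FOSL1 and RUNX2 fell in Rego-resistant SNU449, ETV5 fell in Rego-resistant SNU449-Axl- cells, and JUNB, ETS2 and ETV5 rose while FOSL1 fell with Axl loss in control cells. These are 2 of 16 lower against 3.50% of all genes, 1 of 16 lower against 1.81%, and 3 higher and 1 lower against 4.03% and 3.43%. FOSL1, a subunit of AP-1, had values of 263, 386 and 426 in SNU449 controls and 198, 177 and 181 in Rego-resistant SNU449 (-0.92, limma, adjusted p = 0.00858). RUNX2 had 104, 113 and 65 in SNU449 controls and 47, 25 and 34 in Rego-resistant SNU449 (-1.39, adjusted p = 0.00311). ETV5, a PEA3 group factor, had 127, 146 and 123 in SNU449-Axl- controls and 79, 61 and 79 in Rego-resistant SNU449-Axl- cells (-0.85, adjusted p = 0.0236). JUN, another AP-1 subunit, lay between 506 and 1070 and was not called. The relation of these factors to the values of MMP7 was not tested.

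Relatives of the ADAMTS family were looked at as 13 genes, of which 5 were analysed. ADAMTSL1, an ADAMTS-like protein without a protease domain, had values of 56, 71 and 65 in SNU449 controls and between 21 and 34 in the other 9 libraries. It fell by 1.29 in Rego-resistant SNU449 (limma, adjusted p = 0.000278) and fell by 1.02 with Axl loss in control cells (adjusted p = 0.00254). ADAMTSL5 rose with Axl loss in control cells by 0.72 (adjusted p = 0.0329). These are 1 of 5 lower for Rego in SNU449 against 3.50% of all genes, and 1 of 5 in each direction for Axl loss in control cells against 4.03% and 3.43%. The SNU449 controls are shared by both of the comparisons in which ADAMTSL1 fell.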

How the data were processed

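RNA of the 12 libraries was sequenced from 3′ ends. Per the labels and the study's methods, the authors trimmed reads with cutadapt 4.0, aligned them with STAR 2.5.3a to GRCh38 with GENCODE and spike-in annotation, left out genes with few reads and fitted DESeq2 with a term for the preparation date. The deposited library values are whole numbers that were read as scores, made by the authors as 2 raised to the variance-stabilized, batch-corrected level. The deposited signal of a gene is the authors' mean normalized count. Columns with the authors' own fold changes and p-values were not used. The depth per library is unknown, as its read counts were not used here.

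Here, limma 3.58.1 (R 4.3.3) with lmFit and a trended eBayes was fitted to log2(value + 1) of all 12 libraries of the table comparing the backgrounds, with 4 groups and the replicate number as a block, which was taken to follow the preparation date. No source used here gives that date for single libraries. The means of the replicate numbers differed by a median of 0.00126 on the log2 scale, against 0.122 for a library from its group. The deviations of same-numbered libraries correlated at -0.329 on average, which a removed effect of that number forces, and those of different-numbered ones at 0.164. The 32 spike-in rows were left out. The fit was tested on simulated data in which 200 genes changed in 1 group. With the block it recovered 0 of them at a log2 change of 0.5 and 113 at a change of 1. False calls were 0 and 3. In the data 678 to 1219 genes were called, and the adjusted p depends on how many genes change. The simulated recovery therefore does not give the recovery in these data. Differences near 0.5 that did not pass the test are not shown to be absent. Named genes were those called in at least 1 of 5 comparisons with a difference of at least 0.5, with TIMP1, TIMP2, MMP2, MMP7, MMP14, ADAM10 and ADAM17. Genes on the lists and those just short of the threshold were added after their values were seen. Calls of single genes were followed through the alternative fits only for the MMP, ADAM, ADAMTS and TIMP genes. This was not done for other genes of the lists, for markers or for neighbouring genes. The members and lists were chosen with earlier results of these data known.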

Additional observations from a re-analysis of the deposited data

Results flagged for a closer look

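The effect of Rego resistance differed between SNU449 and SNU449-Axl- cells for 3 of the 34 genes, against 5.87% of all genes, by the interaction term of the limma fit with Benjamini-Hochberg adjustment over all 15601 genes. For ADAMTS9 the Rego effect in SNU449 minus that in SNU449-Axl- cells was -3.06 on the log2 scale (SE 0.317, adjusted p = 1.83e-05), with a fall in SNU449 and a rise in SNU449-Axl- cells, in 3 of 3 libraries of each resistant group against the controls of its background. For MMP7 it was -2.12 (SE 0.368, adjusted p = 0.002), with rises in both backgrounds. The scale compresses the low control values of MMP7, and which rise was larger in reads was not determined. For MMP16 it was -1.39 (SE 0.283, adjusted p = 0.00621), where the difference in SNU449 alone did not pass the test. All 3 remained called when any 1 of the 12 libraries was left out and when the libraries were centred on spike-in RNAs.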

How the results depend on the processing

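Without the replicate block, 2175 genes were called for Rego in SNU449, 1552 for Rego in SNU449-Axl- cells, 2182 for Axl loss in control cells, 1503 for Axl loss in resistant cells and 1826 for the difference between backgrounds, in place of 1219, 678, 1163, 682 and 916. The members called were then 6, 5 and 6 in the last 3. The block is kept in every other alternative. In tables of 1 pair of groups with the block, the genes called were 603 for Rego in SNU449, 603 for Axl loss in control cells and 1160 for Axl loss in resistant cells, with 3 members for Rego in SNU449 and 4 for Axl loss in resistant cells. Centred on spike-in RNAs, 1814 genes were called for Axl loss in control cells and 5675 for Axl loss in resistant cells, and 8, 9 and 11 members for Rego in SNU449-Axl- cells, Axl loss in control cells and Axl loss in resistant cells. Leaving out 1 library at a time gave 740 to 1299 genes and 3 to 9 members for Rego in SNU449, 205 to 891 and 3 to 6 for Rego in SNU449-Axl- cells, 540 to 1275 and 2 to 4 for Axl loss in control cells, 219 to 826 and 2 to 4 for Axl loss in resistant cells, and 523 to 922 and 3 to 5 for the difference between backgrounds. Member counts moved by over 1.5 times without the second or the third SNU449 control (4 each) or the second Rego-resistant SNU449 library (3) for Rego in SNU449, and without the second Rego-resistant SNU449-Axl- library (3) for Rego in SNU449-Axl- cells. They did so without the first SNU449-Axl- control (4) for Axl loss in control cells, and without the third SNU449 control or the first Rego-resistant SNU449 library (4 each) for Axl loss in resistant cells. For the difference between backgrounds, 5 were called without the third Rego-resistant SNU449, the first SNU449-Axl- control or the third Rego-resistant SNU449-Axl- library. The cause was not tested.

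The solved MMP7 count of SNU449 controls, 6.62 with all 6 tables, was 40.3, 13.3, 58.3, 0.0, 0.0 and 0.0 with 1 table left out, and that of SNU449-Axl- controls, 93.0, moved to 32.4, 145 and 64.3. A pseudocount of 0, a mean normalized count of at least 10 and eBayes without trend moved no count of calls by over 1.5 times. No difference of a named gene changed its direction past the threshold under any alternative. Of the values of named genes under alternatives, 1260 kept their side of the threshold, 33 passed it newly and 30 no longer did. Genes near the floor could not show a fall.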

Other observations

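Of the 12 genes analysed within 1 Mb of MMP7, 2 rose in Rego-resistant SNU449-Axl- cells, against 2.54% of all genes. These were BIRC3, an inhibitor of apoptosis 181 kb away, by 1.46 on the log2 scale (limma, adjusted p = 0.00883), and CFAP300, a gene of motile cilia 436 kb away, by 0.82 (adjusted p = 0.0322). BIRC3 was also higher with Axl loss in resistant cells, by 1.21 (adjusted p = 0.0283). In Rego-resistant SNU449, where MMP7 rose as well, the BIRC3 difference was 0.04 (adjusted p = 0.964), and its Rego effects differed between the backgrounds by -1.42 without passing the test (adjusted p = 0.0591). The difference of CFAP300 there was 0.09 (adjusted p = 0.854). Around ADAMTS9, 1 of 6 genes fell in Rego-resistant SNU449, against 3.50% of all genes. It was PRICKLE2, a planar polarity gene, with a difference of -1.21 (adjusted p = 0.00964). Around ADAMTS15, 1 of 10 genes, APLP2, rose in Rego-resistant SNU449 by 0.69 (adjusted p = 0.03), and around ADAM19, 1 of 12, NIPAL4, which lies within ADAM19 on the opposite strand, rose by 0.75 (adjusted p = 0.0428), while ADAM19 itself had a difference of -0.92 there. Of all genes, 4.31% rose in that comparison. Whether the calls of these neighbours remain in the alternative fits was not tested.

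KRT8, a keratin of simple epithelia, rose with Axl loss in control cells by 0.79 (limma, adjusted p = 0.0332) and in resistant cells by 1.58 (adjusted p = 0.000248). Its values were 542, 444 and 439 in Rego-resistant SNU449-Axl- cells, the group with the highest MMP7. The Rego difference of KRT8 was -0.10 in SNU449 (adjusted p = 0.842), where MMP7 rose. In SNU449-Axl- cells it was 0.69 and did not pass the test (adjusted p = 0.0824). A relation of KRT8 to MMP7 was not tested. KRT18, the other epithelial marker analysed of 5, lay between 667 and 1592 and was not called.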
